A study of Mus musculus with 30 samples.

Results

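The genes described here are the fibroblast growth factor (FGF) genes, the FGF receptor genes, and the Sprouty, Spred and PEA3 ETS genes that FGF signalling switches on or that hold it back. Members were the protein-coding genes of the deposited table whose symbol was Fgf or Fgfr with a number, Fgfrl1, Spry or Spred with a number, or Etv1, Etv4 or Etv5. This name rule found 37 of 45594 genes, with no use of measured values. The members were 18 secreted ligands, 4 FGF homologous factors, 5 receptors, 4 Sprouty genes, 3 Spred genes and 3 PEA3 ETS genes. Of the 37 genes, 33 passed the filter on low counts and were tested. The other 4, Fgf6, Fgf16, Fgf20 and Fgf22, are all ligands, and none of their day means exceeded 0.225 CPM (counts scaled to a library total of 1e+06).

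The study followed mouse induced pluripotent stem cells (iPSCs) as they formed retinal organoids in culture. Poly(A) RNA was sequenced in 30 libraries, 3 biological replicates at each of 10 days of differentiation (D0, D4, D7, D10 and D12, then D15, D18, D22, D25 and D32). All libraries came from a single wild-type iPSC clone carrying an Nrl-GFP reporter, made from embryonic fibroblasts with doxycycline-inducible lentiviral Oct3/4, Sox2, Klf4 and c-Myc, so that clones or animals were not compared. D0 libraries were iPSCs kept on feeder cells with LIF and serum. D4 libraries were 36 whole aggregates each, grown with Matrigel and knockout serum replacement. From D7 the neural retina was cut out of the organoids, 30 organoids a library at D7, 20 at D10 and 12 from D12 to D32. The medium changed at D7 to one with N2 supplement and at D10 to one with taurine, 9-cis retinal and insulin-like growth factor 1, when oxygen was also raised. Serum, B27 and amino acids were added between D25 and D32. Day, tissue cut and medium cannot be told apart in any comparison of days, and p-values measure the spread between these libraries. In whole-tissue RNA, fewer cells of a type and less RNA per cell cannot be told apart.

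Secreted FGFs bind receptor tyrosine kinases on the cell surface together with heparan sulfate, and the active receptor turns on the RAS and ERK cascade. ERK signalling induces the PEA3 ETS transcription factors, which carry part of the response into the nucleus, and the Sprouty and Spred proteins, which damp the same cascade. In mouse pluripotent cells, FGF4 made by the cells themselves prepares them to leave the naive state. In the vertebrate eye, FGFs favour neural retina over pigment epithelium in the optic vesicle.

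Library totals lay between 16.77 and 24.53 (median 19.23), in units of 1e+06 estimated counts. Of the D4 libraries, replicate 2 had 17.55% of its counts in Rn18s-rs5, against at most 0.13% in any other library. Replicate 3 at D4 stood apart in cell makeup. The 6 fixed markers of eye field and retinal progenitors summed to between 107 and 712 CPM in the D4 libraries, and the 6 pluripotency markers to between 54.2 and 604 CPM. The libraries also fell into 2 sets by how counts of Rpl3 were split with its processed copies, 12 libraries with 12.0 to 31.8% in the copies (all of D0 and D7, and replicate 2 of D10 to D25) and 18 with 70.9 to 86.5%. All D4 libraries were in the second set, so day and set cannot be told apart between D4 and D0 or between D7 and D4. A fit with library set in the model takes the size of the set difference from D10 to D25 only. Over D10 to D25, where both sets occur on each day, 2 of 29 tested FGF genes differed between sets, against 4.71% of all tested genes. These were Fgf2 (log2 difference 1.14, SE 0.26, adjusted p = 0.016, higher in the first set) and Spred1 (0.25, SE 0.07, adjusted p = 0.048). Cell types were checked by fixed markers: pluripotency markers summed to 3033 to 3133 CPM at D0, eye field and retinal progenitor markers to 1363 to 1508 CPM at D18, and photoreceptor markers to 5008 to 6564 CPM at D32.

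All 33 tested FGF genes changed over the 10 days (edgeR quasi-likelihood F test, Benjamini-Hochberg adjusted p under 0.05, as for every adjusted p below), against 91.4% of all tested genes. The days of highest mean level were D0 for 11 of the 33 genes (33.3%, against 23% of all tested genes), D32 for 6 (18.18%, against 21.4%) and D25 for 4 (12.12%, against 8.72%). Between D4 and D0, 12 of 33 were higher (27.0% of all tested genes were) and 12 lower (24.8% were), with a median log2 change of -0.14 for the FGF genes and 0.02 for all tested genes. Between D7 and D0, 12 were higher (28.8% of all tested genes) and 15 lower (29.6%), with medians of -0.56 and 0.00. Between D7 and D4, 5 were higher (20.0% of all tested genes) and 5 lower (22.8%). That comparison depended on D4 replicate 3 and on the scaling: without that library 9 were higher and 9 lower, RLE size factors gave 5 and 8, and scaling by library size alone gave 7 and 3. Between D18 and D7, 12 were higher (26.8% of all tested genes) and 5 lower (22.23%), with medians of 0.15 and 0.05. Between D32 and D18, 9 were higher (20.6% of all tested genes) and 9 lower (23.7%), with medians of 0.01 and -0.01. The 9 higher became 5 without D18 replicate 1 or without D32 replicate 1.

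**Figure D1:**
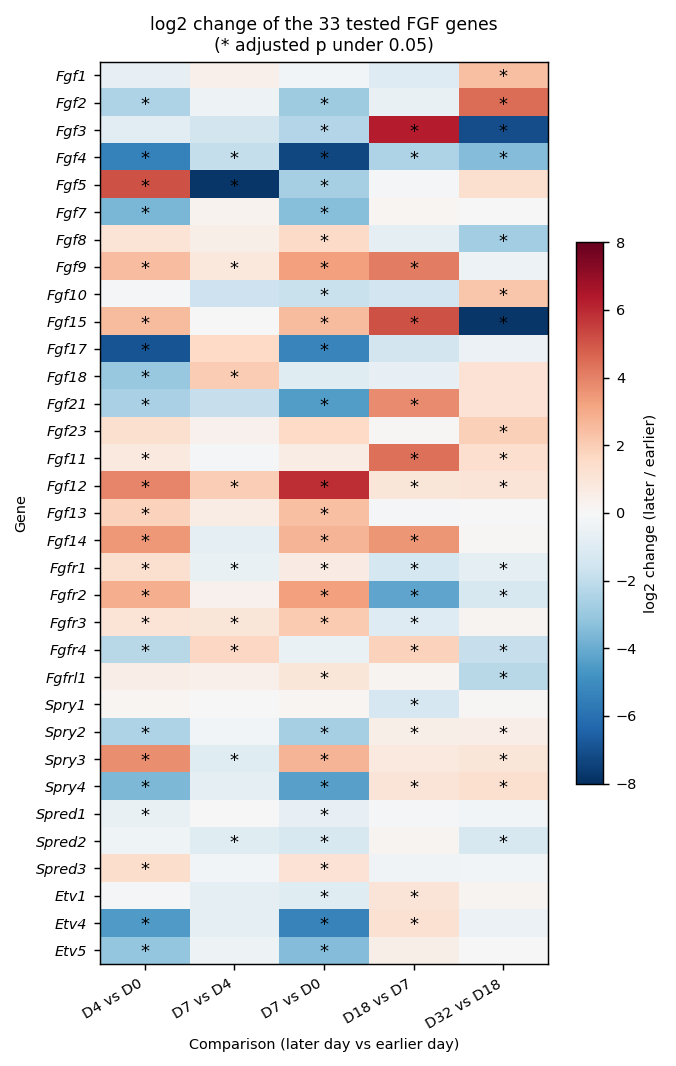
Colour gives the log2 change of each of the 33 tested FGF genes (rows) in 5 comparisons of a later with an earlier day (columns), and an asterisk marks an adjusted p under 0.05. Deep colours mark Fgf15 and Fgf3, higher at D18 than at D7 and lower at D32 than at D18, Fgf5, lower at D7 than at D4, and Fgf4 and Fgf17, lower at D4 and D7 than at D0.

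Fgf4, Fgf17, Fgf7 and Fgf2 were lower at D4 than in iPSCs. Among the 14 tested ligands, 3 were higher at D4 than at D0 (21.4%, against 27.0% of all tested genes) and 6 lower (42.9%, against 24.8%). At D7, 3 were higher than at D0 (21.4%, against 28.8% of all tested genes) and 8 lower (57.1%, against 29.6%), with a median log2 change of -2.09 for the ligands and 0.00 for all tested genes. Fgf4, the ligand that pluripotent cells make for themselves, had 4.7, 6.47 and 4.12 CPM at D4, against 239.5, 222 and 173 CPM at D0. The 3 D0 libraries were all far above every D4 library, a log2 change of -5.38 (SE 0.37, adjusted p = 4.1e-11), or 41.7-fold lower at D4. It fell further to 0.776, 1.62 and 1.71 CPM at D7 (log2 change from D4 of -1.89, SE 0.38, adjusted p = 4.0e-04, which missed the threshold with library set in the model, at -1.73 and adjusted p = 0.074). From D10 to D32 its day means did not exceed 0.334 CPM, and no count was found at D25, which allows a level of up to 0.0499 CPM (3 counts over the 3 libraries).

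Fgf17, a ligand of the Fgf8 subfamily, followed a like course at a lower level. It had 0.113, 0.078 and 0.223 CPM at D4, against 11, 15.5 and 26.2 CPM at D0 (log2 change -6.88, SE 0.63, adjusted p = 1.7e-09), and no later day mean was above 0.453 CPM. Fgf7, a ligand that mesenchyme makes for epithelium, had 0.0566, 0.156 and 0.669 CPM at D4, against 1.99, 4.15 and 5.32 CPM at D0 (log2 change -3.63, SE 0.59, adjusted p = 1.3e-05). Without D4 replicate 3 the Fgf7 change was -5.15. The 6 fibroblast and feeder markers all had counts on both days and summed to 24.2 to 86.8 CPM at D4, against 451 to 1215 CPM at D0, and the 6 pluripotency markers moved the same way. The part of feeder cells in the D0 levels of the ligands was not tested.

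Fgf2, which leaves cells without a signal peptide, was high at both ends of the series and low between them. It had 2.49, 1.56 and 2.95 CPM at D4, against 9.94, 12.6 and 16 CPM at D0 (log2 change -2.45, SE 0.52, adjusted p = 3.2e-04). With library set in the model the change was -1.31 (adjusted p = 0.017). Day means stayed between 0.872 and 2.11 CPM from D7 to D25, and replicate 2, the library of the other Rpl3 set on each day from D10 to D25, was the highest on all of these days but D10, for example with 3.42 CPM at D15, where replicates 1 and 3 had 0.779 and 0.784 CPM. At D32 Fgf2 had 32.15, 21.1 and 27.6 CPM, against 0.496, 2.48 and 0.632 CPM at D18. Every D32 library was above every library of all other days, and the change was 22.5-fold (log2 4.49, SE 0.56, adjusted p = 3.6e-07). It was 5.09 with library set in the model and 5.56 without D18 replicate 2. Beside it, Müller glia markers summed to 599 to 782 CPM at D32, against 500.4 to 516 CPM at D18, and the 3 astrocyte markers to 19.7 to 33.9 CPM at D32, against 0.993 to 2.48 CPM at D18. On other days the lists did not follow Fgf2. Müller glia markers summed to 675 to 765 CPM at D25, where Fgf2 averaged 0.872 CPM. The astrocyte markers summed to 18.16 to 23.9 CPM at D7, where Fgf2 averaged 1.82 CPM. All 5 glial and all 3 astrocyte markers had counts at D18 and D32, and their part in the Fgf2 level was not tested.

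Fgf5, which marks epiblast cells as they leave the naive state, was high on 1 day only and not in every library. It had 48.5, 48.3 and 1.5 CPM at D4, against 1.1, 1.19 and 0.578 CPM at D0. Replicate 3 at D4 was close to the highest D0 library, yet the groups did not overlap (log2 change 5.08, SE 0.79, adjusted p = 6.9e-06, and 3.87 with library set in the model). At D7 it had 0.103, 0.162 and 0.171 CPM, a log2 change from D4 of -7.76 (SE 0.96, adjusted p = 8.1e-07, and -6.56 with library set in the model), and no later day mean was above 0.504 CPM. Fgf10, another mesenchymal ligand, showed the opposite split at D4, with 0.396, 0.624 and 14.8 CPM, against 6.79, 5.65 and 5.38 CPM at D0. That difference did not pass the test (log2 change -0.16, SE 0.69, adjusted p = 0.88). Its means were 1.7 CPM at D7, 1.19 at D10, between 0.558 and 0.858 from D12 to D22, 1.59 at D25 and 2.81 at D32. It was lower at D7 than at D0 (log2 change -1.80, SE 0.73, adjusted p = 0.037), a call that did not hold when any 1 library of D0 or D7 was left out.

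A second ligand group, led by Fgf15, the mouse counterpart of human FGF19, had its highest means between D10 and D15. Fgf15 is known from the mouse embryo as a gene of dividing retinal progenitors. Its mean level was 3.83 ± 0.377 CPM at D0, 21.8 ± 10.6 at D4, 22.18 ± 1.24 at D7, 361 ± 40.9 at D10, 636 ± 97.3 at D12 and 1107 ± 293 at D15 (SD, n = 3 on each day). It then was 745 ± 167 CPM at D18, 159 ± 39.2 at D22, 30.7 ± 13.2 at D25 and 3.39 ± 1.7 at D32. The level at D15 was thus the highest of the series and the last value lay close to that of iPSCs. In single libraries Fgf15 had 823, 553 and 860.0 CPM at D18, against 21.6, 23.6 and 21.3 CPM at D7, a 33.6-fold difference (log2 5.07, SE 0.38, adjusted p = 6.2e-11). At D32 it had 2.14, 2.7 and 5.33 CPM, 219.7-fold lower than at D18 (log2 -7.78, SE 0.44, adjusted p = 2.4e-13). No D32 library came near any D18 library. Progenitor markers, which summed to 707 to 792 CPM at D32, against 1363 to 1508 CPM at D18, moved the same way but far less, and all 6 had counts on both days. At D25 they still summed to 851 to 1290.0 CPM, where Fgf15 averaged 30.7 CPM. The part of progenitor number in the Fgf15 level was not tested.

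Fgf3, a ligand of otic and neural development, kept nearly the same days at a lower level. Its means were 1.24 ± 0.232 CPM at D0, 0.67 ± 0.389 at D4, 0.231 ± 0.104 at D7, 4.4 ± 0.684 at D10, 11.6 ± 3.04 at D12 and 27.4 ± 6.39 at D15, then 18.24 ± 4.29 at D18, 2.85 ± 1.41 at D22, 0.25 ± 0.0747 at D25 and 0.129 ± 0.149 at D32 (SD, n = 3). It was 76-fold higher at D18 than at D7 (log2 6.25, SE 0.52, adjusted p = 4.8e-10) and 135-fold lower at D32 than at D18 (log2 -7.07, SE 0.56, adjusted p = 1.4e-10, and -8.38, on 2 remaining counts, without D32 replicate 1). In the deposited GRCm38.p4 gene ranges, Fgf3, Fgf4 and Fgf15 lie next to each other on the plus strand of chromosome 7, within 62870 bases. The gap is 2931 bases from the end of Fgf3 to the start of Fgf4 and 31288 bases from the end of Fgf4 to the start of Fgf15, and no other protein-coding gene starts in the region. The outer genes of this cluster were highest at D15 and the middle one at D0.

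Fgf9, a ligand expressed in the distal optic vesicle of the mouse, was higher at D4 than at D0 (log2 change 2.49), at D7 than at D4 (0.82) and at D18 than at D7. It had 29, 30.2 and 19.6 CPM at D18, against 1.09, 1.51 and 1.94 CPM at D7 (log2 change 4.12, SE 0.22, adjusted p = 1.2e-13). Its means were 0.145 ± 0.0798 CPM at D0, 0.862 ± 0.141 at D4, 1.51 ± 0.425 at D7, 26.5 ± 3.15 at D10, 39.4 ± 3.5 at D12, 28.9 ± 5.44 at D15 and 26.3 ± 5.79 at D18, then 20.9 ± 1.26 at D22, 18 ± 1.23 at D25 and 19.9 ± 1.76 at D32 (SD, n = 3). Unlike Fgf15, Fgf9 did not pass the test between D32 and D18 (log2 change -0.40, SE 0.18, adjusted p = 0.071). Fgf8, the patterning ligand of the midbrain-hindbrain border and the optic stalk, reached 3.43 ± 0.509 CPM at D10 and was lower at D32 than at D18 (0, 0 and 0.197 CPM at D32, against 0.316, 0.658 and 0.486 CPM at D18). The log2 change was -2.78 (SE 0.70, adjusted p = 0.002). All D32 counts were in replicate 3, without which the fitted change of -6.25 has no count behind it.

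The remaining ligands were near the floor of detection. The highest day means were 2.25 CPM for Fgf1 at D32, 1.05 for Fgf18 at D0, 0.777 for Fgf21 at D32 and 0.742 for Fgf23 at D32. Fgf1 and the bone hormone gene Fgf23 were higher at D32 than at D18 (log2 2.40, SE 0.79, adjusted p = 0.016 for Fgf1, and 1.93, SE 0.65, adjusted p = 0.018 for Fgf23). Both calls were lost without D32 replicate 1, that of Fgf1 also without D18 replicate 1 or D32 replicate 3, and that of Fgf23 also without D18 replicate 2. Fgf18 was lower at D4 than at D0 (log2 change -3.01, SE 0.61, adjusted p = 1.9e-04), with -2.39 without D4 replicate 1 and -3.82 without D4 replicate 3. Fgf21, a metabolic hormone of the liver, had 0.0566, 0.078 and 0.111 CPM at D4, against 0.663, 0.57 and 0.347 CPM at D0 (log2 change -2.59, SE 0.86, adjusted p = 0.014, a call lost without D4 replicate 1, and -3.48 with library set in the model).

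**Figure D2:**
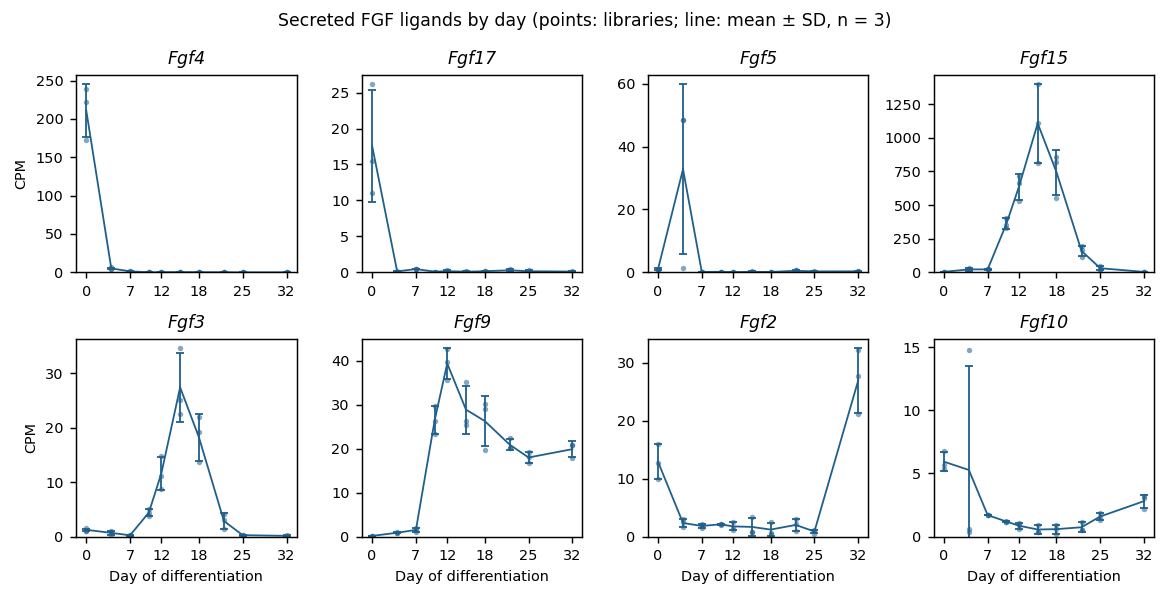
Level in CPM (vertical axis, own scale in each panel, starting at 0) against day of differentiation (horizontal axis) for 8 secreted ligands, with a point per library and a line through the mean ± SD of 3 libraries. Fgf4 and Fgf17 peak at D0, Fgf5 at D4 in 2 of 3 libraries, Fgf15 and Fgf3 at D15, Fgf9 at D12 and Fgf2 at D32.

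Levels of different genes were compared after division by the count-weighted mean length of each gene's transcripts, as CPM per kilobase. On that scale 1 ligand led the secreted FGFs on most days. Fgf4 had 69.8 ± 11.4 CPM per kilobase at D0 and made up 68.1 to 82.2% of the summed ligand level, ahead of Fgf17 at 10.4 ± 4.61. At D4 Fgf5 (13.6 ± 11.2) and Fgf15 (12.098 ± 5.89) overlapped. Fgf15 then led from D7 (72 to 75.9% of the sum) to D25 (51.5 to 69.9%), with its largest share, 94 to 96.3%, at D15. At D32 Fgf9 led with 8.29 ± 0.735 CPM per kilobase, above Fgf2 at 4.57 ± 0.946 and Fgf15 at 1.88 ± 0.943, with no overlap between neighbours in that order. The summed ligand level was 91.3 ± 6.62 CPM per kilobase at D0, 16.7 ± 0.5 at D7, 641 ± 163 at D15 and 19.1 ± 2.83 at D32.

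The 4 FGF homologous factors are not ligands: they stay inside the cell and bind voltage-gated sodium channels, and they are known from neurons. All 4 were higher at D4 than at D0, against 27.0% of all tested genes, and 3 of 4 were higher at D7 than at D0 (28.8% of all tested genes) and at D18 than at D7 (26.8%). At D32, 2 of 4 were higher than at D18 (20.6% of all tested genes), and none was lower in any of these comparisons. Fgf11 had 101, 88.7 and 114 CPM at D18, against 4.97, 3.99 and 5.07 CPM at D7 (log2 change 4.43, SE 0.27, adjusted p = 2.2e-12), and 261, 206 and 316 CPM at D32, a further log2 change of 1.37 (SE 0.23, adjusted p = 3.0e-05). Each D32 library was above every D18 library. On the other days the Fgf11 means were 3.09 CPM at D0, 5.26 at D4, 43.4 at D10, 26.5 at D12, 71.3 at D15, 95.7 at D22 and 148 at D25.

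Fgf12 had 3 counts in all at D0, so no fold against D0 is given. It averaged 0.911 ± 0.436 CPM at D4, 3.67 ± 0.173 at D7, 5.45 ± 0.924 at D10, 4.83 ± 0.991 at D12, 5.24 ± 0.879 at D15, 7.09 ± 2.15 at D18, 13.2 ± 1.81 at D22, 21.8 ± 5.26 at D25 and 14.5 ± 1.61 at D32. It was higher at D18 than at D7 (log2 change 0.95, SE 0.28, adjusted p = 0.0061) and at D32 than at D18 (1.03, SE 0.27, adjusted p = 0.0028). Fgf14 averaged 0.164 ± 0.0532 CPM at D0, 1.91 ± 0.813 at D4, 1.12 ± 0.21 at D7, 3.07 ± 0.579 at D10, 5.02 ± 2.37 at D12 and 11 ± 2.46 at D15, and between 11.8 and 14.4 CPM from D18 to D32. It was 11.7-fold higher at D18 than at D7 (log2 3.55, SE 0.34, adjusted p = 3.7e-09) and did not pass the test between D32 and D18 (0.10, SE 0.29, adjusted p = 0.8). Photoreceptor markers moved the same way between D7 and D18, with sums of 381 to 628 CPM at D18, against 6.05 to 15.4 CPM at D7. They went on to 5008 to 6564 CPM at D32, where Fgf14 averaged 14.2 CPM, against 13.2 CPM at D18. Amacrine and horizontal cell markers summed to 18.28 to 40.7 CPM at D7 and 166 to 235 CPM at D18. Their sums were 335 to 569 CPM at D25 and 209.6 to 243 CPM at D32. All 5 markers of each list had counts on these days, and the part of these cells in the levels of these genes was not tested.

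Fgf13 reached its level early and kept it, while the transcripts behind the level changed. The gene had 7.93, 10.06 and 27.9 CPM at D4, against 3.87, 4.66 and 4.39 CPM at D0 (log2 change 1.83, SE 0.31, adjusted p = 2.7e-05, and 1.07 without D4 replicate 3). Its day means lay between 19.7 and 26.9 CPM from D7 to D32, and neither later comparison passed the test. The deposited transcript table splits the counts among transcripts that start far apart on the X chromosome. Transcript Fgf13-001 and transcript Fgf13-006 start 433635 bases from each other, at chrX:59134436 and chrX:59568071 on the minus strand (GRCm38.p4). The RefSeq table of GRCm38.p6, a patch release of the same build, gives promoters as 250 bases before to 50 after a start. It has a promoter at the first of these positions (chrX:59134387-59134686). Another has its start 723 bases from the second (chrX:59567299-59567598). That window lies downstream of the start of Fgf13-006 and does not hold it. Both promoters are shown because Fgf13-001 and Fgf13-006 traded shares of the gene's counts over the days:
Fgf13 promoter at the start of Fgf13-001: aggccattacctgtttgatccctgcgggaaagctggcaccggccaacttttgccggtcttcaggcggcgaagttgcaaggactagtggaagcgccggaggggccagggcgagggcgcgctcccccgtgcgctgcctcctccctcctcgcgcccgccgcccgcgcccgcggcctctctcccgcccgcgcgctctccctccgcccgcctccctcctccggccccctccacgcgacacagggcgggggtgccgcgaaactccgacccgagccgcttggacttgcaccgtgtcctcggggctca
Fgf13 promoter nearest the start of Fgf13-006: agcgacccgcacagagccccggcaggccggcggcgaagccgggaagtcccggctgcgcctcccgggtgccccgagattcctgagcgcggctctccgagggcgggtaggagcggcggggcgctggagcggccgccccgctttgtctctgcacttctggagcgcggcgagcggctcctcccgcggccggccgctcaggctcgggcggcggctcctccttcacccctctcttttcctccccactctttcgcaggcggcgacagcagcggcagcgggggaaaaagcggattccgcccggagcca

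Fgf13-001 took 71.5, 79.8 and 41.3% of the counts of Fgf13 at D0 and averaged between 53.3 and 77.2% on each day from D4 to D18. Its mean share was 23.4 ± 14.5% at D22 and 12.24 ± 8.9% at D25, and the libraries of D32 had 18.07, 19 and 16.7%. Fgf13-006 went the other way. It had no count at D0, mean shares of 28.3 ± 5.44% at D18, 46.1 ± 1.63% at D22 and 55.2 ± 12.9% at D25, and 70.2, 66.9 and 69% in the libraries of D32 (SD, n = 3). As a level, Fgf13-006 had 15.22, 11.1 and 15.23 CPM at D32, against 5, 6.38 and 5.67 CPM at D18. Another transcript, Fgf13-008, ranged from 0 to 43.2% between libraries with no such course, for example 39.9, 11.5 and 1% at D25.

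Fgf14 also shifted between starts 484225 bases apart. Fgf14-002 had 83.8, 67.8 and 81.9% of the counts of Fgf14 at D10 and 26.6, 25.7 and 25% at D15, and Fgf14-001 had the rest. The D10 shares rest on 197 counts over 3 libraries and the D7 shares on 67, against 607 at D15. These shares are estimates of a program that divides reads between overlapping transcripts, the genes were picked for display after their shares were seen, and no test was made. How far such an estimate can move is shown by Spry1, whose 2 main transcripts start 11 bases apart: Spry1-001 had 97, 1.69e-05 and 32.4% of the counts in the 3 libraries of D12.

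**Figure D3:**
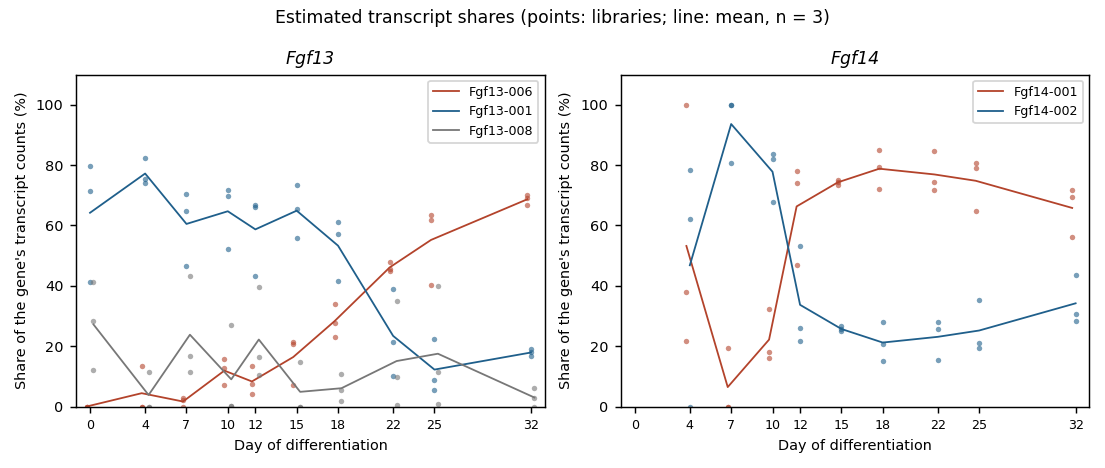
Share of a gene's estimated counts in single transcripts (vertical axis, percent) against day of differentiation (horizontal axis), with a point per library and a line through the mean of 3 libraries. For Fgf13, transcript 006 goes from no count at D0 to 68.7% at D32 while transcript 001 goes from 64.2% to 17.9%. For Fgf14, D0 is not drawn because the gene had 9 counts in all. The mean share of transcript 001 is above that of transcript 002 at D4 and from D12, and below it at D7 and D10. Transcript 001 ranges from 21.7 to 100.0% between the D4 libraries, and has 46.8% in replicate 2 at D12.

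The kinase receptor genes Fgfr1, Fgfr2 and Fgfr3 were higher at D7 than in iPSCs, and Fgfr1 and Fgfr2 were low in the late retina. Of 5 receptor genes, 3 were higher and 1 lower at D4 than at D0, against 27.0 and 24.8% of all tested genes, and 4 were higher and none lower at D7 than at D0, against 28.8 and 29.6%. At D18, 1 was higher and 3 lower than at D7, against 26.8 and 22.23% of all tested genes, and at D32 none was higher and 4 were lower than at D18, against 20.6 and 23.7%. Fgfr1, the receptor most widely used in embryonic tissue, had 242, 301 and 227 CPM at D4, against 92.4, 105 and 127 CPM at D0 (log2 change 1.25, SE 0.15, adjusted p = 1.7e-07). Its later means were 172 ± 22.25 CPM at D7, 126 ± 8.34 at D10, 93.3 ± 12.06 at D12, 87.8 ± 8.61 at D15, 64.7 ± 3.68 at D18, 40.9 ± 4.8 at D22, 33.8 ± 4.19 at D25 and 36.8 ± 7.03 at D32. It was lower at D7 than at D4 (log2 -0.57), at D18 than at D7 (-1.41, SE 0.15, adjusted p = 2.9e-08) and at D32 than at D18 (-0.81, SE 0.15, adjusted p = 8.6e-05).

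Fgfr2, in its epithelial form the receptor of Fgf7 and Fgf10, changed most. It had 222, 193 and 204 CPM at D7, against 20.2, 24.7 and 19 CPM at D0, a 9.68-fold difference (log2 3.28, SE 0.32, adjusted p = 3.8e-09). At D18 it had 11.6, 6.68 and 14.3 CPM, 19-fold lower than at D7 (log2 -4.25, SE 0.34, adjusted p = 1.9e-10). The highest D18 library was below the lowest D0 library. Its other means were 159 ± 23.3 CPM at D4, 74.3 ± 4.73 at D10, 42.1 ± 6.62 at D12, 18.16 ± 5.84 at D15, 6.08 ± 2.38 at D22, 3.52 ± 1.73 at D25 and 4.46 ± 1.66 at D32. The 5 pigment epithelium markers moved the same way between D7 and D18. They summed to 39.1 to 59 CPM at D18, against 818 to 991 CPM at D7, and 4 of 5 had counts, with Rpe65 at 0 on both days. At D4 the sums were 4.52 to 32.11 CPM, where Fgfr2 averaged 159 CPM. Fgfr2 did not pass the test between D7 and D4 (log2 change 0.37, SE 0.29, adjusted p = 0.32). At D10 they were 980.4 to 1139.8 CPM, where Fgfr2 averaged 74.3 CPM. The part of pigment epithelium in the Fgfr2 level was not tested.

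Fgfr3, which limits bone growth and is found in neural progenitors and glia, had a pair of maxima. It averaged 7.02 ± 2.03 CPM at D0, 14.9 ± 1.84 at D4, 29.5 ± 7.43 at D7, 23.9 ± 8.05 at D10, 12.4 ± 1.84 at D12, 11.6 ± 1.61 at D15, 14.4 ± 3.07 at D18, 22.296 ± 3.93 at D22, 33.7 ± 3.99 at D25 and 16.9 ± 3.77 at D32. It was higher at D7 than at D0 (log2 change 2.07, SE 0.25, adjusted p = 1.1e-07) and lower at D18 than at D7 (-1.03, SE 0.24, adjusted p = 8.4e-04), and the later maximum at D25 is given as a level only. Fgfr4 was highest late in the progenitor phase. It had 11.3, 6.27 and 5.98 CPM at D18, against 3.88, 1.4 and 1.2 CPM at D7 (log2 change 1.85, SE 0.47, adjusted p = 0.0019, and 2.59 without D7 replicate 1), and 2.78, 2.23 and 1.53 CPM at D32, lower than at D18 (-1.85, SE 0.47, adjusted p = 0.0022). On the other days Fgfr4 averaged 3.19 CPM at D0, 0.668 at D4, 1.28 at D10, 0.886 at D12, 3.19 at D15, 8.28 at D22 and 4.61 at D25.

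Fgfrl1 encodes a receptor with no tyrosine kinase domain that binds FGFs. It had 4.38, 4.74 and 3.5 CPM at D32, against 16.8, 19.9 and 21.2 CPM at D18 (log2 change -2.20, SE 0.30, adjusted p = 1.4e-06), and no D32 library came near a D18 library. Before that it averaged 8.71 CPM at D0, 12.7 at D4, 16.8 at D7, 22.11 at D10, 16.8 at D12 and 24.4 at D15, and afterwards 13.4 at D22 and 9.07 at D25. Per kilobase, Fgfr1 led the receptor genes with 31.2 ± 5.03 CPM per kilobase at D0 and 74.3 ± 11.3 at D4. Fgfr2 led at D7, with 63.2 ± 4.44 against 49.9 ± 6.44 for Fgfr1 and no overlap, and Fgfr1 led again from D10. At D25 Fgfr1 (9.78 ± 1.21) and Fgfr3 (9.41 ± 1.11) overlapped. The summed receptor level was 44.5 ± 4.82 CPM per kilobase at D0, 133 ± 7.96 at D4, 129 ± 11.7 at D7, 36.9 ± 3.27 at D18 and 19.2 ± 2.87 at D32.

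**Figure D4:**
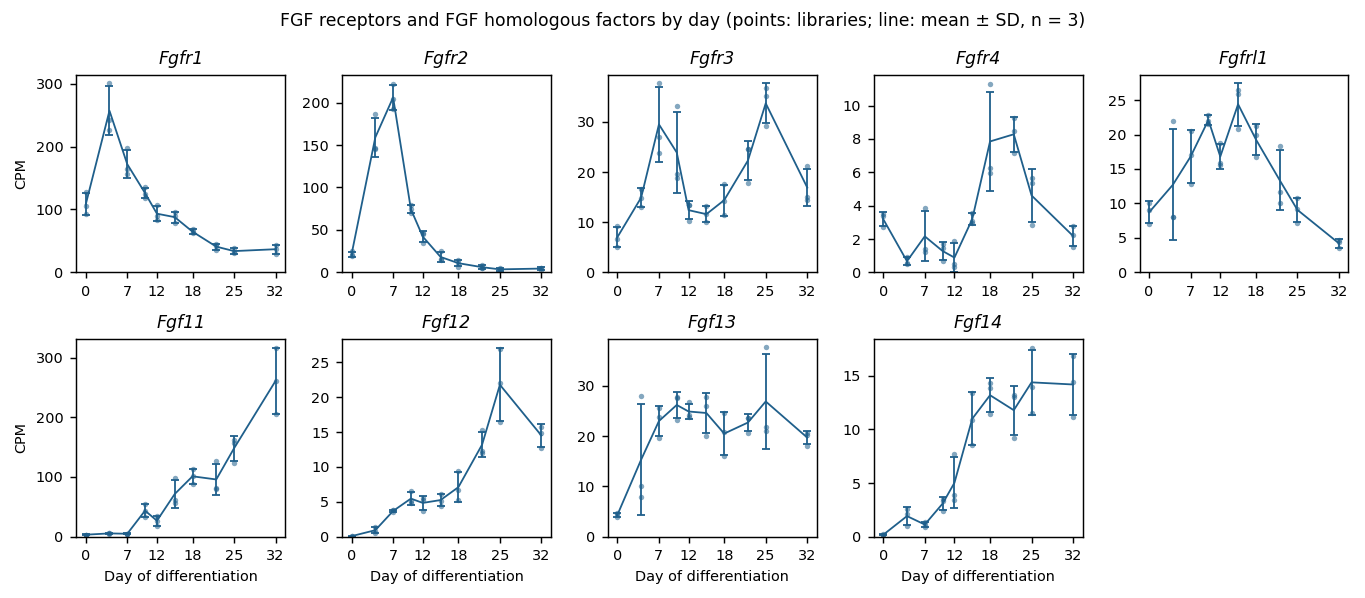
Level in CPM (vertical axis, own scale in each panel, starting at 0) against day of differentiation (horizontal axis) for the 5 receptor genes and the 4 FGF homologous factors, with a point per library and a line through the mean ± SD of 3 libraries. Fgfr1 peaks at D4 and Fgfr2 at D7, Fgfr3 has maxima at D7 and D25, and Fgf11 is highest at D32 with 261 CPM.

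Etv4, Etv5, Spry2, Spry4, Spred1 and Spred2 had their highest mean in iPSCs, and Etv1, Spry1, Spry3 and Spred3 did not. Of the 10 Sprouty, Spred and PEA3 ETS genes, 2 were higher (20.0%, against 27.0% of all tested genes) and 5 lower (against 24.8%) at D4 than at D0. At D7, 2 were higher (20.0%, against 28.8% of all tested genes) and 7 lower (70.0%, against 29.6%) than at D0, with a median log2 change of -1.12, against 0.00 for all tested genes. Etv4 had 6.34, 7.41 and 8.7 CPM at D4, against 123, 154 and 242 CPM at D0 (log2 change -4.53, SE 0.36, adjusted p = 1.6e-10). Etv5 had 41.8, 46.6 and 25.4 CPM at D4, against 298, 312 and 362 CPM at D0 (log2 change -3.10, SE 0.26, adjusted p = 5.1e-10). In both, the groups were far apart. Etv1 did not pass the test there (log2 change -0.14, SE 0.33, adjusted p = 0.74), with 18.18, 20.4 and 4.35 CPM at D4 and 12.7, 12.9 and 21.7 CPM at D0.

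After D4, no library of Etv4 or Etv5 reached the lowest D0 library again, while Etv1 went above its D0 level. Etv4 averaged 173 ± 61.5 CPM at D0 and 7.48 ± 1.18 at D4, then 4.3 ± 1.44 at D7, 8.66 ± 1.99 at D10, 12.4 ± 4.21 at D12, 11.1 ± 3.02 at D15, 9.91 ± 3.07 at D18, 6.24 ± 2.67 at D22, 7.03 ± 1 at D25 and 7.31 ± 1.71 at D32. Etv5 averaged 324 ± 34.1 CPM at D0, 37.9 ± 11.1 at D4, 29 ± 1.74 at D7, 33.2 ± 8.18 at D10, 50.4 ± 6.87 at D12, 42.5 ± 16 at D15, 39.7 ± 13.2 at D18, 56.6 ± 5.7 at D22, 57.6 ± 10.9 at D25 and 39.3 ± 7.01 at D32. Etv1 had its highest mean at D12, the same day as Fgf9. Its means were 15.7 CPM at D0, 14.3 at D4, 8.1 at D7, 24.6 at D10, 30.3 at D12, 26 at D15, 16.4 at D18, 14.3 at D22, 15.5 at D25 and 19.1 at D32. At D18, Etv4 (log2 change from D7 of 1.20, SE 0.34, adjusted p = 0.0048) and Etv1 (1.02, SE 0.33, adjusted p = 0.013) were higher than at D7, the Etv1 call being lost without D7 replicate 2, and none of the 3 passed the test between D32 and D18.

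The Sprouty genes, whose products inhibit receptor tyrosine kinase signalling, differed in direction. Spry2 had 16.3, 21.5 and 14.5 CPM at D4, against 90.4, 96.1 and 107 CPM at D0 (log2 change -2.49, SE 0.20, adjusted p = 1.3e-10). Spry4 had 4.13, 5.77 and 2.56 CPM at D4, against 48.9, 50.8 and 48.8 CPM at D0 (log2 change -3.58, SE 0.33, adjusted p = 1.8e-09). In contrast Spry1 did not pass the test at D4 or at D7 against D0: it had 21.9, 21.8 and 25.5 CPM at D4 and 21.3, 20.8 and 19.5 CPM at D0 (log2 change 0.17, SE 0.21, adjusted p = 0.54). Spry3 rose, with 4.02, 3.35 and 2.29 CPM at D4, against 0.276, 0.155 and 0.289 CPM at D0 (log2 change 3.72, SE 0.42, adjusted p = 5.1e-08).

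In the retina the family again differed in direction. Spry1 averaged 22.6 ± 6.76 CPM at D7, 12.6 ± 1.37 at D10, 10.6 ± 2.6 at D12, 11.5 ± 1.51 at D15, 8.99 ± 0.13 at D18, 7.28 ± 1.38 at D22, 5.96 ± 1.32 at D25 and 9.52 ± 2.25 at D32, and was lower at D18 than at D7 (log2 change -1.33, SE 0.22, adjusted p = 1.5e-05). Spry4 averaged 2.47 ± 0.467 CPM at D7, 3.09 ± 0.439 at D10, 4.6 ± 0.911 at D12, 3.89 ± 1.64 at D15, 4.95 ± 1.95 at D18, 9.94 ± 0.534 at D22, 9.12 ± 2.24 at D25 and 12.13 ± 3.42 at D32, and was higher at D32 than at D18 (1.29, SE 0.30, adjusted p = 0.0011). Spry2, Spry3 and Spry4 were all higher at D32 than at D18, with log2 changes of 0.51, 0.95 and 1.29. Spry2 averaged 15.26 CPM at D7, 15.12 at D10, 20.5 at D12, 22.05 at D15, 21.3 at D18, 25.08 at D22, 21.9 at D25 and 30.4 at D32, so that its late level stayed below the 97.8 CPM of D0. Spry3 averaged 1.62 CPM at D7, 2.37 at D10, 1.85 at D12, 1.31 at D15, 2.74 at D18, 2.15 at D22, 4.51 at D25 and 5.28 at D32.

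The Spred proteins bring the RAS inhibitor neurofibromin to the membrane. Spred1 had 60.4, 59.9 and 63 CPM at D4, against 95, 93.8 and 93.4 CPM at D0 (log2 change -0.62, SE 0.14, adjusted p = 4.2e-04), and its later means lay between 47 CPM at D32 and 79.3 CPM at D12. Spred3 went up at the same step, with 38.4, 31 and 25 CPM at D4, against 9.67, 10.8 and 15.8 CPM at D0 (log2 change 1.38, SE 0.20, adjusted p = 3.2e-06). Its means were 26.9 CPM at D7, 44.8 at D10, 39.4 at D12, 27.5 at D15 and between 19 and 23.2 CPM from D18 to D32. Spred2 fell on a pair of occasions. It had 33.9, 35.9 and 28.5 CPM at D7, against 61.7, 77.9 and 50.8 CPM at D4 (log2 change -0.95, SE 0.14, adjusted p = 1.2e-05), and 15.29, 16.7 and 15.6 CPM at D32, against 34.3, 42 and 37.5 CPM at D18 (-1.26, SE 0.15, adjusted p = 1.2e-07). The groups did not overlap in either comparison, and the other Spred2 means were 79.9 CPM at D0, 59.1 at D10, 62.5 at D12, 54.9 at D15, 27.7 at D22 and 24.7 at D25.

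**Figure D5:**
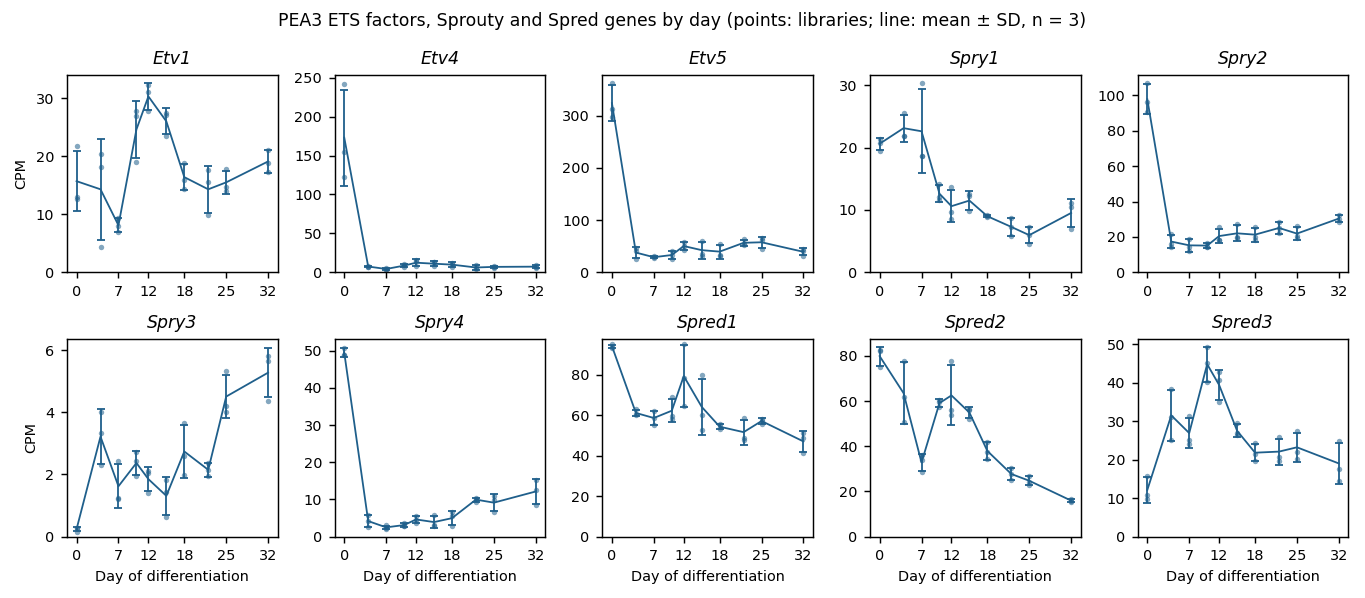
Level in CPM (vertical axis, own scale in each panel, starting at 0) against day of differentiation (horizontal axis) for the 3 PEA3 ETS genes, 4 Sprouty genes and 3 Spred genes, with a point per library and a line through the mean ± SD of 3 libraries. Etv4, Etv5, Spry2 and Spry4 are highest at D0 by a wide margin, Spry3 is near 0 at D0 and highest at D32, and Spred3 is highest at D10.

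The PEA3 ETS factors bind DNA at a core of GGAA. Its extended form CCGGAA, searched on both strands as CCGGAA or TTCCGG, was present in 14.9% of the 32851 promoters of the RefSeq table (300 bases each) and in at least 1 promoter of 16.7% of its 27025 genes. Of the 27 FGF genes with a promoter in the table, 5 held it: Fgf5, Fgf12, Fgfr4, Fgfrl1 and Spry2. Spry2 was the only 1 of the 7 Sprouty, Spred and PEA3 ETS genes with a promoter there that held it, and its promoter is shown for that reason (chr14:105896770-105897069, minus strand, GRCm38.p6), with the match in capitals:
Spry2 promoter: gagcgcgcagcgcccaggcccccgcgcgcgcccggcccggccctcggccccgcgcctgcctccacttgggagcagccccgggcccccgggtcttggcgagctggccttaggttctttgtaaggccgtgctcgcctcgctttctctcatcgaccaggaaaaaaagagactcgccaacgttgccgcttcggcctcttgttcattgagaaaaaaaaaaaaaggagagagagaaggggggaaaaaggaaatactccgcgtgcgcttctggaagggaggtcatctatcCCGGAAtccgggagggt
A match is a run of letters, not a measured binding site, and these windows hold no distal elements.

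Other genes of the pathway were taken from 4 lists. Of 10 tested co-receptors and extracellular modifiers, 7 were higher and 1 lower at D7 than at D4, and of 9 heparan sulfate synthesis genes 7 were higher and 1 lower, with median log2 changes of 1.10 and 0.60, against -0.01 for all tested genes. Of all tested genes 20.0% were higher and 22.8% lower in that comparison, where day and library set cannot be told apart. Without D4 replicate 3, which was nearer to D7 than the other D4 libraries in several of these genes (Flrt3 had 22.8, 29.6 and 132 CPM at D4, and Ndst1 had 37, 44.9 and 89.9 CPM at D4), 8 and 7 were higher and 1 of each list lower, against 24.6% higher and 25% lower of all tested genes. Cdh2, the N-cadherin that binds FGF receptors, had 402, 366 and 343 CPM at D7, against 14.7, 16.2 and 21.6 CPM at D0 (log2 change 4.41, SE 0.32, adjusted p = 1.6e-11). Flrt3, a membrane protein that binds FGF receptors, had 193, 193 and 205 CPM at D7, against 10.9, 10.31 and 13 CPM at D0 (log2 change 4.11, SE 0.41, adjusted p = 4.7e-09), and 15.9, 14.8 and 17.9 CPM at D18, lower than at D7 (-3.60, SE 0.40, adjusted p = 5.0e-08). This course was like that of Fgfr2 in its high day. Sulf1, a sulfatase that trims heparan sulfate on the cell surface, had 8.62, 11.3 and 12 CPM at D18, against 308, 256 and 235 CPM at D7 (log2 change -4.65, SE 0.34, adjusted p = 4.7e-11). At D32 it was higher than at D18 again (2.72, SE 0.32, adjusted p = 1.2e-07). Fgfbp1, a carrier that releases FGFs from the matrix, had 0.362, 0.431 and 0.456 CPM at D7, against 23.5, 27.2 and 29 CPM at D0 (log2 change -5.97, SE 0.79, adjusted p = 4.4e-07), and 1 count in all at D18. Ndst1, an enzyme that sulfates heparan sulfate, was higher at D7 than at D0 (2.49, SE 0.23, adjusted p = 1.0e-09), and Ext1, which builds the chain, was lower at D18 than at D7 (-2.24, SE 0.17, adjusted p = 5.3e-11). Hs6st3, another sulfating enzyme of low level, was higher at D18 than at D7 (2.70, SE 0.43, adjusted p = 1.1e-05).

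Among 19 transducers, 5 were higher and 5 lower at D4 than at D0, that is 26.3% each way, close to the 27.0 and 24.8% of all tested genes. At D18, 3 were higher (15.8%, against 26.8% of all tested genes) and 10 lower (52.6%, against 22.23%) than at D7, and at D32, 2 were higher (against 20.6%) and 8 lower (42.1%, against 23.7%) than at D18. Gab1, an adaptor that links receptors to SHP2 and PI3 kinase, had 28.9, 28.8 and 37.2 CPM at D4, against 408, 409.6 and 455 CPM at D0 (log2 change -3.74, SE 0.11, adjusted p = 7.3e-18). It stayed there, with library values between 26.8 and 41.7 CPM from D7 to D32. Nras was lower at D32 than at D18 (log2 change -1.41, SE 0.11, adjusted p = 1.5e-10). Of 10 negative regulators, 2 were higher (20.0%) and 3 lower (30.0%) at D4 than at D0, shares near those of all tested genes (27.0 and 24.8%). The ERK phosphatase gene Dusp9 had 8.33, 15.4 and 7.36 CPM at D4, against 105, 131 and 124 CPM at D0 (log2 change -3.54, SE 0.27, adjusted p = 8.0e-11). Unlike Etv4, Spry2 and Spry4, it was high again at D7, with 98.6, 134 and 117 CPM, and then fell to 3.29, 3.14 and 3.36 CPM at D18 (log2 change from D7 of -5.15, SE 0.30, adjusted p = 6.0e-13). Dusp7, another of these phosphatase genes, was higher at D4 than at D0 (1.59, SE 0.22, adjusted p = 1.4e-06). Dusp6, an ERK phosphatase gene often read as an FGF target, was lower at D4 than at D0 (-1.38, SE 0.21, adjusted p = 6.0e-06), with 15.35, 16.7 and 26.7 CPM at D4 and 49.2, 53.1 and 51 CPM at D0. It did not stay at its D4 level: the D7 libraries had 38.9, 35 and 30.1 CPM, between those of D4 and D0. All D0 and D7 libraries were in the first Rpl3 set and all D4 libraries in the second. Day and library set thus cannot be told apart in these steps, and pathway genes are not given with library set in the model.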

How the data were processed

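Per the labels' protocols, poly(A) libraries were made with a stranded kit. Per the submitters' processing notes, reads were handled with Trimmomatic 0.36, kallisto 0.42.4 and edgeR (version not given) on GRCm38.p4. How strand was used in counting, and the step from transcripts to genes, are not given in the sources used here, so reads of antisense partners may not be told apart. The authors deposited an estimated count per gene, an estimated count per transcript with transcript lengths, and a normalised signal per gene in CPM. In each table, 3 columns (9 over all tables) have names that no sample carries, and they were set aside.

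Estimated counts of genes were rounded to whole numbers, and edgeR 4.0.16 under R 4.3.3 was used for the tests. The filterByExpr filter, set to a count of 10, a total of 15 and the day groups, passed 19897 genes, which held 99.73% or more of every library's counts. Libraries were scaled by TMM (factors 0.524 to 1.162), all 30 libraries entered 1 model with day means, and quasi-likelihood F tests were adjusted by Benjamini-Hochberg over all tested genes and called below 0.05. Standard errors are the log2 change over the square root of F. CPM values here use the TMM-scaled totals. A level of 0 is given with the value that 3 counts over a day's libraries allow, which covers counting error only.

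The alternatives were RLE or no scaling factors, DESeq2 1.42.0, 2 other filters, limma 3.58.1 on log2 of the deposited CPM plus 1 or 0.1, replicate number or library set in the model, only the 6 libraries compared, and leaving out each library. Leaving out D4 replicates 2 and 3 together, and counting the lists without D4 replicate 3, were chosen after the data were seen. The fitting code was also run on simulated counts modelled on the D18 and D32 libraries only, with the same spread for every gene. That run does not cover the D4 libraries, the library sets or ligands of low count. All members are accounted for. Day values are given for each receptor, Sprouty, Spred and PEA3 ETS gene and each Fgf gene reaching a mean of 5 CPM, changes mainly for members called with an absolute log2 change of at least 1, and from the pathway lists at most 3 genes per class in a comparison, largest changes first. The members and the lists were chosen with earlier results of these data known. Promoters came from the RefSeq table of GRCm38.p6.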

Additional observations from a re-analysis of the deposited data

How the results depend on the processing

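Counts of FGF genes called were within 1.5 times of those reported under most alternatives. Leaving out single libraries, given below, moved both counts of D7 vs D4 and the number higher in D32 vs D18 by more than that. Among the other alternatives the exceptions were in D7 vs D4. There the number higher was 5 and became 2 with only the 6 libraries of the days compared. The number lower was 5 and became 8 with RLE size factors, 3 with library size only and 9 with DESeq2. The cause was not tested. Leaving out each library in turn gave 33 to 33 genes changed over the 10 days, 11 to 13 higher and 11 to 13 lower in D4 vs D0, 2 to 9 higher and 4 to 9 lower in D7 vs D4 (2 higher without D4 replicate 1), 11 to 12 and 12 to 15 in D7 vs D0, 10 to 13 and 5 to 6 in D18 vs D7, and 5 to 10 and 8 to 10 in D32 vs D18. Without D4 replicates 2 and 3 together, the numbers higher and lower were 11 and 12 in D4 vs D0 and 6 and 7 in D7 vs D4. With no filter beyond 1 count, 3 in place of 2 FGF genes differed between library sets. With library size only, the median log2 change of all tested genes shifted to -0.18 in D4 vs D0, 0.40 in D7 vs D4, 0.19 in D7 vs D0 and 0.17 in D18 vs D7. Of 79 changes of single genes called with an absolute log2 change of at least 1, 66 kept their call under every alternative, and of their 3222 alternative values 38 missed the threshold and 0 changed sign. The 13 that lost a call at least once were changes of Fgf1, Fgf4, Fgf5, Fgf8, Fgf10, Fgf18, Fgf21, Fgf23, Fgfr4 and Etv1. Same-numbered libraries of different days correlated in their deviations with a mean r of 0.0836 (-0.409 to 0.451, against a mean of -0.0413 for other numbers). As some of these pairs were below 0.1 and the labels tie no number to a batch, the libraries were treated as unpaired. That 21 of 30 libraries were closest to their own number, and that replicate 2 from D10 to D25 is the library of the first Rpl3 set, are hints of pairing from the data, not the design. With the replicate block, 12 were higher and 13 lower in D4 vs D0, 5 and 6 in D7 vs D4, 12 and 15 in D7 vs D0, 12 and 5 in D18 vs D7, and 9 and 9 in D32 vs D18, with 33 changed over the 10 days. Depth limits the ligands below 1 CPM, for which single libraries hold a few counts.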
